A study of Mus musculus with 30 samples.

Results

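The data described here are 6 spleen libraries of mice that lack Padi4 (Pad4-/-), 3 from mice given imiquimod and 3 from control mice. They are 6 of the 30 RNA-seq libraries of the series and 6 of its 18 spleen libraries. The other spleen libraries, 3 imiquimod and 3 control each for WT (named FVB in the titles) and for mice that lack Padi2 (Pad2-/-), entered the same statistical fit, and are used below only to set the Pad4-/- response beside the other responses. The labels used here give no age, dose, route, duration or knockout strain, nor whether mice were pooled. They do not state that the replicates are different mice, and the p-values therefore reflect only the variation among these libraries, which could be technical. Control mice are called naive in the source names. The extract protocol mentions imiquimod mice alone, and the agent label was followed for the controls. Members were chosen by tissue, genotype and agent. The series asks how spleen and lymph node of mice without Padi2 or Padi4 respond to a TLR7 agonist relative to WT mice.

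Imiquimod is a small-molecule agonist of Toll-like receptor 7 (TLR7), an endosomal receptor for single-stranded RNA. TLR7 is carried to the endosome by Unc93b1 and signals through the adaptor Myd88, IRAK kinases and Traf6 to NF-kB and interferon regulatory factors. In mice, prolonged TLR7 stimulation is known for an enlarged spleen, autoantibodies, and growth of myeloid and red cell precursors in the spleen. Padi4 encodes a peptidylarginine deiminase, an enzyme of granulocytes that turns arginine of histones into citrulline during the release of neutrophil extracellular traps.

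Expression values are RPKM, which are read numbers divided by transcript length and library size, and differences are log2 fold changes of imiquimod over control on log2(RPKM + 0.5), with the standard error (SE) of the limma fit and Benjamini-Hochberg adjusted p-values over 11982 genes. A gene is said to have risen or fallen where its adjusted p was under 0.05. Padi4 (mm10 chromosome 4, 140745508 to 140774239) had 0.259, 0.0693 and 0.12 RPKM in imiquimod libraries, against 0.0975, 0.156 and 0.113 RPKM in controls. All 6 values were under 1 RPKM and the groups overlapped, with a log2 fold change of 0.05 ± 0.30 and an adjusted p of 0.885. In WT spleen, Padi4 averaged 16.8 ± 8.59 RPKM with imiquimod and 1.57 ± 0.604 RPKM in controls (SD, n = 3 each), so the low values in Pad4-/- spleen fit the genotype label. Padi2 (mm10 chromosome 4, 140906336 to 140952586), the deiminase of many tissues, had 5.09, 6.9 and 5.8 RPKM in imiquimod libraries, against 8.76, 8.56 and 8.62 RPKM in controls. Every imiquimod library was below every control library, and the fall was -0.52 ± 0.10 on the log2 scale (adjusted p = 0.000278). The other deiminases, Padi1, Padi3 and Padi6, did not pass the filter of 1 RPKM in 3 spleen libraries.

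The B cell gene Cd79a, the T cell gene Cd3e and the red pulp macrophage gene Spic were present in all 6 libraries, at no less than 367, 44.6 and 6.96 RPKM. Libraries held 11136 to 11282 genes at 1 RPKM or more with imiquimod, against 10925 to 10952 in controls. Imiquimod libraries varied more among themselves: the median SD of a gene within the group was 0.169 on the log2 scale, against 0.0649 in controls. Haemoglobin genes made up 12.2%, 0.721% and 2.43% of the summed RPKM in imiquimod replicates 1, 2 and 3, against 1.71%, 1.08% and 1.01% in the controls. Imiquimod replicate 1 thus stands apart by its haemoglobin share, and results on red cell genes are given with and without it. Imiquimod replicate 3 had the lowest values of granule genes among the imiquimod libraries. Read depth is unknown, because the files hold only RPKM.

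Imiquimod changed most of the measured transcriptome of the Pad4-/- spleen. Of 11982 genes tested, 4062 rose and 4325 fell, which is 33.9% and 36.1% of those tested and 70.0% together (8693 had an unadjusted p under 0.05). Rises were larger than falls: 1534 genes rose and 635 fell by more than 2-fold, and 140 rose and 2 fell by more than 8-fold. The median log2 fold change of all genes was -0.04. Libraries of the groups did not overlap for 4505 higher genes (37.6%) and 4738 lower genes (39.5%). Without imiquimod replicate 1 the counts were 3980 genes higher and 3620 lower. The split depends on scaling: with libraries brought to equal totals without haemoglobin genes, 2739 genes were higher and 6228 lower. Of the changed genes 30.5% were then higher, against 48.4% with RPKM as deposited, and the median of all genes was -0.30. As deposited, the RPKM of all genes summed to 482324, 452366 and 428633 in imiquimod replicates 1, 2 and 3. The sums were 364129, 356509 and 355026 in the controls. All fold changes below are relative to the scaling of the deposited RPKM. Counts of list members below can be set beside the 33.9% of all tested genes that rose and the 36.1% that fell.

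The 12 largest rises were led by Fcgr4 (mm10 chromosome 1, 171018926 to 171029761), the activating receptor for IgG2 antibodies on monocytes, macrophages and neutrophils. Fcgr4 had 240.1, 149 and 157 RPKM in imiquimod libraries, against 1.13, 2.11 and 1.65 RPKM in controls. Its lowest imiquimod library was far above its highest control library, and the log2 fold change was 6.42 ± 0.25 (adjusted p = 9.13e-11), a ratio of means of 112. Next came Apol11b, of the apolipoprotein L family, with 104, 9.16 and 28 RPKM in imiquimod libraries, against 0.948, 0.417 and 0.327 RPKM in controls. Its imiquimod libraries spread widely, with replicate 1 highest and replicate 2 lowest, all above the controls (log2 fold change 4.89 ± 0.95). Adamdec1, a secreted protease of macrophages and dendritic cells, had 56.5, 41.7 and 33.9 RPKM in imiquimod libraries, against 0.82, 1.16 and 1.23 RPKM in controls. Slpi, a secreted inhibitor of neutrophil proteases, had 404, 231 and 372 RPKM in imiquimod libraries, against 13.9, 15.7 and 15.9 RPKM in controls. Prg2, the major basic protein of eosinophils, had 28.7, 18.6 and 9.81 RPKM in imiquimod libraries, against 0.412, 0.402 and 0.443 RPKM in controls. In each of these 3 genes all imiquimod libraries lay above all controls, with log2 fold changes of 4.80 ± 0.29 for Adamdec1, 4.38 ± 0.31 for Slpi and 4.29 ± 0.62 for Prg2. The other 7 were granule, calprotectin or antibody genes that return below: Prtn3, Ctsg, Elane, Chil3, Camp, S100a8 and Jchain, with log2 fold changes between 4.27 for Jchain and 4.78 for Prtn3.

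The 12 largest falls included genes of marginal zone and follicular B cells and of tissue macrophages. Retnla, a secreted product of alternatively activated macrophages, had 0.0934, 0.075 and 0.0321 RPKM in imiquimod libraries, against 5.72, 1.87 and 15.2 RPKM in controls. Its controls varied widely among themselves and still lay far above every imiquimod library (log2 fold change -3.44 ± 0.63). Cr2 (mm10 chromosome 1, 195136811 to 195176880), the complement receptor CD21 of mature B cells, had 6.81, 25.7 and 20.1 RPKM in imiquimod libraries, against 156, 157 and 158 RPKM in controls. Replicate 1 was the lowest of the imiquimod libraries, and the fall was -3.32 ± 0.45 on the log2 scale (adjusted p = 1.32e-05). S1pr3, a sphingosine-1-phosphate receptor that marginal zone B cells carry, had 0.94, 2.53 and 2.07 RPKM in imiquimod libraries, against 18, 17.9 and 15.5 RPKM in controls. Ackr3, a scavenging receptor for the chemokine CXCL12, had 0.602, 2.38 and 1.87 RPKM in imiquimod libraries, against 13.4, 14.2 and 13.5 RPKM in controls. Dtx1, a Notch target, had 12.6, 31.8 and 26.9 RPKM in imiquimod libraries, against 137, 119.6 and 129.7 RPKM in controls. All imiquimod libraries lay below all controls in these genes, with log2 fold changes of -2.97 ± 0.30 for S1pr3, -2.86 ± 0.26 for Ackr3 and -2.51 ± 0.37 for Dtx1. Cd209d, a C-type lectin of the DC-SIGN family, had 0.356, 0.208 and 0.155 RPKM in imiquimod libraries, against 4.69, 4.78 and 4.24 RPKM in controls, a log2 fold change of -2.78 ± 0.16. The remaining falls were Tsga13 (-2.52), Ell3 (-2.24), Ceacam2 (-2.22), the neuropeptide receptor Vipr1 (-2.17), Als2cl (-2.14) and the kallikrein Klk1 (-2.06, log2 fold changes). In bulk tissue such as this, fewer cells of a type and less RNA per cell cannot be told apart, and more RNA of 1 cell type lowers the share left to the rest.

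**Figure D1:**
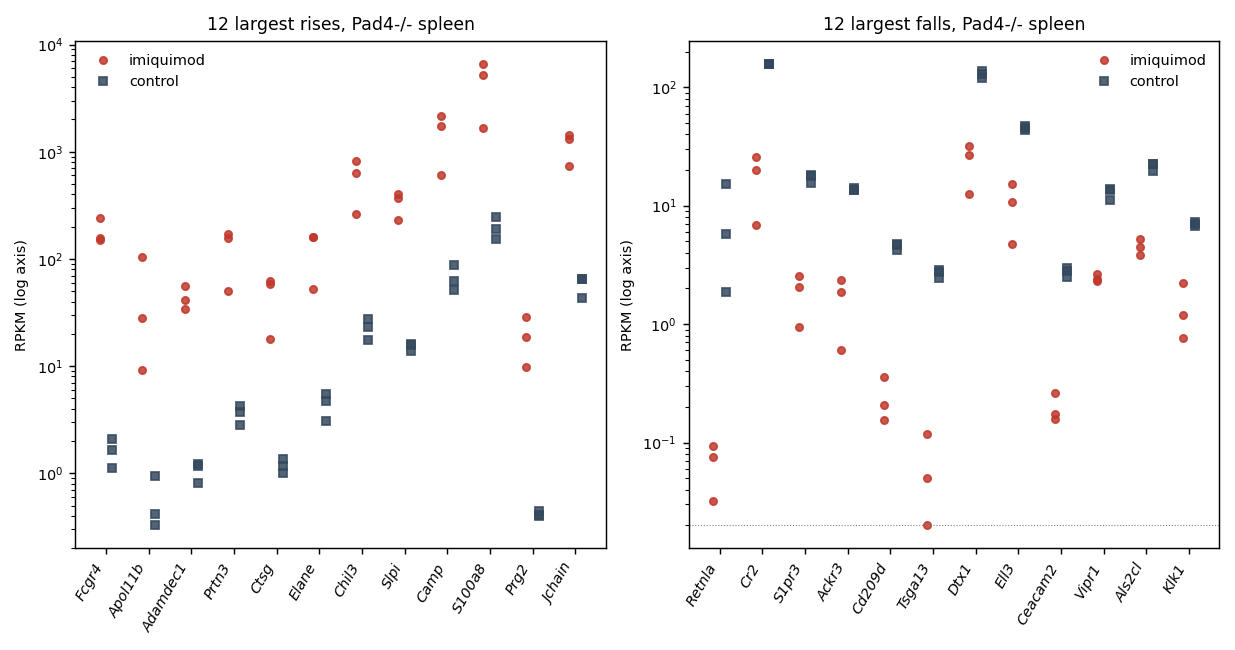
Level of the 12 genes with the largest rises (left) and falls (right) in Pad4-/- spleen, in RPKM on a log axis, 1 point per library (circles imiquimod, squares control). In every gene the 3 imiquimod points lie to 1 side of the 3 control points; the single value of 0 (Tsga13, imiquimod replicate 1) is drawn on the dotted line.

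The endosomal receptors did not move together. Of 12 tested receptors, chaperones and receptor-processing proteases, 7 rose and 4 fell, with a median log2 fold change of 0.39, against -0.04 for all genes. Tlr7 itself (mm10 chromosome X, 167303380 to 167330574) had 8.37, 8.81 and 8.29 RPKM in imiquimod libraries, against 4.83, 6.35 and 4.87 RPKM in controls. All imiquimod values were above all controls, a modest rise of 0.63 ± 0.14 (adjusted p = 0.000874). Tlr8 (mm10 chromosome X, 167241123 to 167264329), its neighbour on the X chromosome and another member of the RNA-sensing branch, had 8.85, 7.37 and 6.39 RPKM in imiquimod libraries, against 0.535, 0.742 and 0.691 RPKM in controls. From a low control level it rose by 2.79 ± 0.13. Tlr13, the mouse receptor for bacterial ribosomal RNA, rose by 2.29 ± 0.21, with 12.4, 13.5 and 9 RPKM in imiquimod libraries, against 1.51, 2.59 and 1.84 RPKM in controls. The DNA receptor Tlr9 had 9.76, 16.6 and 17.7 RPKM in imiquimod libraries, against 22.8, 21.7 and 22.9 RPKM in controls. Its log2 fold change of -0.64 ± 0.19 (adjusted p = 0.00855) rests on imiquimod replicate 1, the lowest library, without which it was -0.38 (adjusted p = 0.0554). Tlr3, the receptor for double-stranded RNA, had 1.05, 1.08 and 1.39 RPKM in imiquimod libraries, against 2.29, 2.37 and 2.3 RPKM in controls. No library overlapped, and the fold change was -0.76 ± 0.12. With quantile normalization the list split into 5 higher and 5 lower members, and without imiquimod replicate 1 into 7 higher and 1 lower.

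The transporters and proteases around these receptors split in the same way. Hsp90b1 (gp96), the ER chaperone that folds most Toll-like receptors, rose with 514, 376 and 649 RPKM in imiquimod libraries, against 139.8, 138 and 140.3 RPKM in controls, a log2 fold change of 1.84 ± 0.19. Ctsb and Ctss, lysosomal cathepsins, rose by 1.76 ± 0.15 and 0.56 ± 0.11, Ctss losing its call under quantile normalization. Unc93b1 had 139, 197 and 177 RPKM in imiquimod libraries, against 213, 207 and 204 RPKM in controls. All imiquimod values lay below the controls, but the difference of -0.30 ± 0.14 did not pass (adjusted p = 0.0645); it passed under 6 alternatives, among them equal totals without haemoglobin genes (-0.58, adjusted p = 0.000265). Slc15a4, an endolysosomal transporter needed for TLR7 signals in plasmacytoid dendritic cells, fell (-0.32 ± 0.11), a call lost without imiquimod replicate 1 (-0.25, adjusted p = 0.0823). The chaperone Cnpy3 (-0.25 ± 0.11, adjusted p = 0.0445) and the protease Lgmn (0.21 ± 0.08, adjusted p = 0.0228) passed only narrowly, and their calls were lost when single libraries were left out (adjusted p up to 0.139 for Cnpy3, without imiquimod replicate 3, and 0.142 for Lgmn, without control replicate 3). The sign of Lgmn turned to -0.07 with equal totals without haemoglobin genes.

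Downstream, adaptors and kinases of the TLR7 route fell more often than they rose, and Myd88 rose. Of 16 tested genes, 1 rose and 10 fell (median -0.36), where 33.9% of all tested genes rose and 36.1% fell. Myd88, the adaptor that every TLR except TLR3 uses, had 39.1, 44.4 and 35 RPKM in imiquimod libraries, against 24.4, 22.9 and 24.4 RPKM in controls. It was the member that rose, with a log2 fold change of 0.71 ± 0.14 (adjusted p = 0.0003). Ikbkb, the kinase that releases NF-kB from its inhibitor, fell most, with 22, 29.1 and 27.8 RPKM in imiquimod libraries, against 49.8, 48.6 and 50.8 RPKM in controls (-0.92 ± 0.12). Traf3 (-0.91 ± 0.15), Irak2 (-0.74 ± 0.10), Ikbkg (-0.53 ± 0.09), Traf6 (-0.49 ± 0.09) and Chuk (-0.49 ± 0.09) fell as well, and so did Irf5 (-0.46 ± 0.13), the transcription factor of this route that carries lupus risk in people. Map3k7 (-0.40) and Irak1 (-0.31) fell by less, and Irak3 (-0.33, adjusted p = 0.0284) lost its call without any of 4 Pad4-/- libraries (adjusted p up to 0.129, without imiquimod replicate 3). Irf7, the interferon regulatory factor that TLR7 activates in plasmacytoid dendritic cells, had 24.8, 17.1 and 24.1 RPKM in imiquimod libraries, against 15.4, 13.2 and 15.6 RPKM in controls. Its libraries did not overlap, yet it did not pass (0.55 ± 0.28, adjusted p = 0.0926), and it did with only the 6 Pad4-/- libraries in the fit (adjusted p = 0.0129). Irak4 (0.03), Tab1 (0.10), Tab2 (-0.16, adjusted p = 0.0501) and Tab3 (-0.06) did not pass. Tab2 passed without imiquimod replicate 2 (-0.22, adjusted p = 0.0188) and under 5 other alternatives, and Irak4 reversed to -0.24 and passed with equal totals without haemoglobin genes (adjusted p = 0.0264).

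NF-kB subunits and their feedback inhibitors fell as well. In this list 8 of 13 tested members fell and 1 rose (median -0.33), where 36.1% of all tested genes fell and 33.9% rose. Rel, the c-Rel subunit of lymphocytes, fell most, with 4.53, 9.06 and 8.05 RPKM in imiquimod libraries, against 16.2, 18.4 and 19.4 RPKM in controls, lowest in replicate 1 (-1.31 ± 0.21). Relb (-0.67 ± 0.14), Nfkb2 (-0.65 ± 0.15) and the deubiquitinase Cyld (-0.59 ± 0.13) fell. Only the inhibitor Nfkbib rose (0.38 ± 0.07, adjusted p = 0.0002), and with equal totals without haemoglobin genes its value was 0.10 and did not pass. Without imiquimod replicate 1, which had the lowest B cell levels, 5 members fell. The summed RPKM of the pan-B cell list, described below, was 1486, 2405 and 2311 RPKM in imiquimod libraries, against 3704, 3725 and 3532 RPKM in controls, and its part in these falls was not tested.

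**Figure D2:**
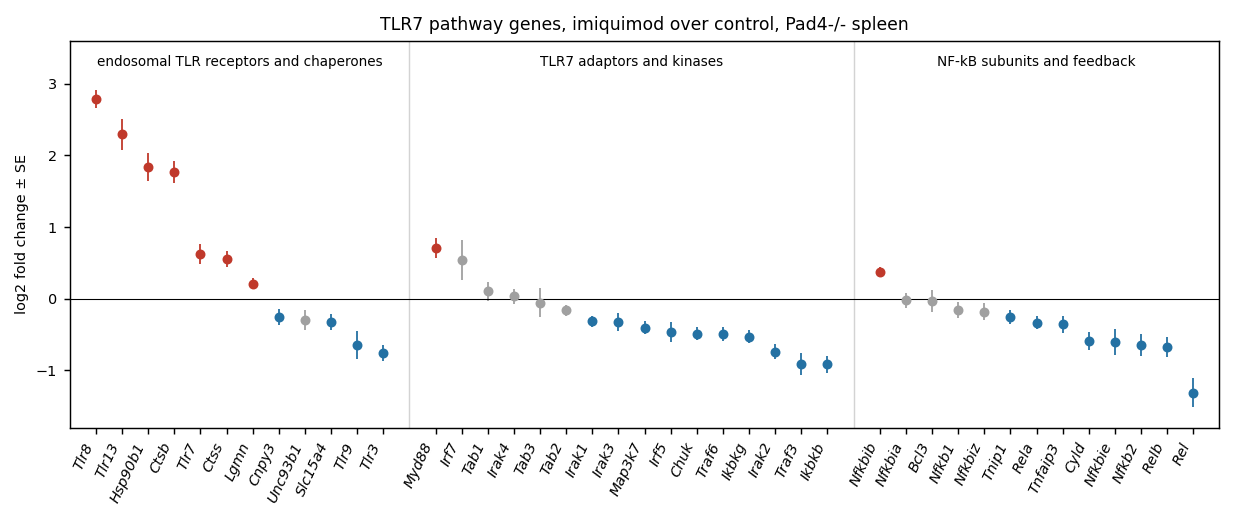
Log2 fold change with its SE, imiquimod over control in Pad4-/- spleen, for the tested genes of 3 TLR7 pathway lists, ordered within each list (red rose, blue fell, grey did not pass at an adjusted p of 0.05). Tlr8 at 2.79 and Rel at -1.31 mark the ends, and Myd88 and Nfkbib are the only members of their lists above 0 that passed.

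Type I interferon-stimulated genes rose in part. Of 30 tested members 16 rose and 2 fell, with a median log2 fold change of 0.87. Ifnb1 was listed at 0 in all 6 libraries. Oas1a (mm10 chromosome 5, 120896256 to 120907544), an activator of RNase L, had 17.4, 14.1 and 19.3 RPKM in imiquimod libraries, against 2.74, 3.57 and 3.33 RPKM in controls. It rose by 2.23 ± 0.29 (adjusted p = 9.65e-06), with no overlap of libraries. Its close relative Oas1g had 2.37, 1.82 and 2.29 RPKM in imiquimod libraries, against 0.0317, 0.103 and 0.0303 RPKM in controls (2.26 ± 0.40), and reads of these near-identical paralogues may be shared between them. Cmpk2, a mitochondrial nucleotide kinase, rose by 1.48 ± 0.20, and Ifih1, the RNA sensor MDA5, by 1.03 ± 0.14. Stat2, which carries the interferon signal itself, had 9.55, 13.1 and 15 RPKM in imiquimod libraries, against 21.8, 22.5 and 21.6 RPKM in controls. It fell (-0.81 ± 0.15), and the RNA sensor Ddx58 (RIG-I) fell (-0.74 ± 0.14). The summed RPKM of the list was 636, 401 and 593 RPKM in imiquimod libraries, against 289.8, 298 and 292 RPKM in controls; imiquimod replicate 2 was the lowest of its group, and without it 19 members rose. With equal totals without haemoglobin genes the counts were 14 higher and 7 lower.

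The Oas1a promoter is shown because it holds a letter pattern common in this list. In the 250 bases before the RefSeq start (GRCm38.p6), TTTC, any 2 bases and TTTC again, the core of the interferon-stimulated response element, was present on either strand in 10 of the 21 members found in the promoter table (47.6%), against 3.53% of the promoters of 9552 tested genes. This is a description of letters, not of binding. Oas1a carries overlapping matches just before the start used in the RefSeq promoter table; the gene extent given above reaches past that start, so nearly all of these letters lie within it; the sequence runs 5′ to 3′ on the gene's strand (chr5:120907526-120907775, minus strand), with the matches in capitals.
Oas1a: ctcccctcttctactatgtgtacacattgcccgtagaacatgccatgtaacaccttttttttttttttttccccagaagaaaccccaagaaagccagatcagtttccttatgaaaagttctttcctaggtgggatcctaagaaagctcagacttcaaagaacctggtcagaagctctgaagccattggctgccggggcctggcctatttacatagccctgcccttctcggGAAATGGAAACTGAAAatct

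Interferon-gamma targets rose in part. In this list 8 of 17 tested members rose and 2 fell (median 0.48), where 33.9% of all tested genes rose and 36.1% fell. The immunity-related GTPases Iigp1 and Igtp rose by 2.43 ± 0.50 and 1.48 ± 0.32, and the guanylate-binding proteins Gbp2 and Gbp3 by 1.71 ± 0.34 and 0.98 ± 0.20, while Gbp9 fell (-0.83 ± 0.19). Iigp1 had 5.92, 4.88 and 12.8 RPKM in imiquimod libraries, against 0.841, 0.904 and 1.08 RPKM in controls, highest in replicate 3. Ciita, the master regulator of MHC class II genes, had 17.9, 37.2 and 33.6 RPKM in imiquimod libraries, against 43.6, 51.1 and 43.1 RPKM in controls. It fell (-0.69 ± 0.24, adjusted p = 0.0199); the call was lost without imiquimod replicate 1 (-0.37) or control replicate 2 (-0.61).

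Class I presentation genes rose and class II genes fell more often than not. Of the MHC class I and immunoproteasome list 9 of 14 rose and 1 fell (median 0.48). B2m, the class I light chain, had 2436, 2103 and 2301 RPKM in imiquimod libraries, against 1179, 1237 and 1218 RPKM in controls (0.91 ± 0.16). The immunoproteasome subunit Psmb9 had 221, 231 and 267 RPKM in imiquimod libraries, against 107, 116 and 113 RPKM in controls (1.09 ± 0.19). H2-K1 and H2-D1, class I heavy chains, rose by 0.67 ± 0.16 and 0.57 ± 0.13, and Psmb8 by 0.59 ± 0.17, of which H2-D1 and Psmb8 lost their calls under quantile normalization; reads of class I genes may be shared among close copies. The chaperone Tapbp had -0.27 ± 0.11 (adjusted p = 0.035), a call lost without any of 5 libraries (adjusted p up to 0.154, without imiquimod replicate 1). The rises depend on scaling: under quantile normalization 3 members rose and 2 fell, and with equal totals without haemoglobin genes 4 rose and 3 fell. Of 11 class II genes 7 fell and 1 rose (median -0.52). H2-Ob, a B cell modulator of peptide loading, had 40.4, 77.3 and 71.6 RPKM in imiquimod libraries, against 139, 143 and 137 RPKM in controls (-1.20 ± 0.27). H2-DMb2 and H2-DMb1, which load peptide, fell (-0.77 ± 0.21 and -0.58 ± 0.16). Cd74, the invariant chain, had 2217, 3170.2 and 3022 RPKM in imiquimod libraries, against 4338, 3970.1 and 3824 RPKM in controls (-0.54 ± 0.19, adjusted p = 0.0163; 0.0982 without imiquimod replicate 1 and 0.0554 without control replicate 1). Ctss, which trims the invariant chain, was the only riser. In H2-Ob, H2-DMb2, H2-DMb1 and Cd74 imiquimod replicate 1 was the lowest library, and without it 3 class II members passed as lower, the median being -0.37.

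Cytokine genes rose more often than they fell. Of 16 tested, 10 rose and 3 fell (median 0.98), and with equal totals without haemoglobin genes 9 rose and 6 fell. Tnfsf13b (BAFF) and Tnfsf13 (APRIL), survival factors of B and plasma cells, were among the largest rises. Tnfsf13b had 4.61, 5.07 and 3 RPKM in imiquimod libraries, against 0.269, 0.449 and 0.444 RPKM in controls (2.39 ± 0.23). Tnfsf13 had 7.11, 7.11 and 4.08 RPKM in imiquimod libraries, against 0.675, 0.817 and 1.55 RPKM in controls (2.13 ± 0.26). Il10, an anti-inflammatory cytokine, had 2.67, 1.7 and 2.45 RPKM in imiquimod libraries, against 0.0481, 0.0967 and 0.131 RPKM in controls (2.21 ± 0.21). Il21, the follicular helper cytokine, had 1.09, 0.941 and 1.64 RPKM in imiquimod libraries, against 0.0593, 0.0331 and 0.0373 RPKM in controls (1.64 ± 0.22). Il27 rose by 1.58 ± 0.20. Il1b, the product of myeloid inflammasomes, rose by 1.72 ± 0.39. Lta and Ltb, the lymphotoxins of lymphocytes that maintain follicular stroma, fell (-0.98 ± 0.22 and -0.59 ± 0.18), and so did Il18 (-0.42 ± 0.11). Among the listed cytokines, Il6, Il12b, Il1a and Ifnb1 did not pass the filter on low values. With the stricter filter of 5 RPKM, the median turned to -0.25.

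Chemokines rose, with 1 exception. Of 12 tested, 11 rose and 1 fell (median 1.80). The platelet chemokine Ppbp rose most, by 3.39 ± 0.54, and Pf4, the other platelet chemokine, by 3.24 ± 0.61. Myeloid Ccl6 had 57.1, 54.6 and 36.5 RPKM in imiquimod libraries, against 11.4, 15.4 and 10.7 RPKM in controls (1.93 ± 0.27), and Ccl9 rose by 2.15 ± 0.33. Ccl4, made by activated T and NK cells and macrophages, rose by 1.98 ± 0.32, and Cxcl10, an interferon target that draws Cxcr3+ T cells, by 1.80 ± 0.28. Ccl22, a dendritic cell chemokine, had low values of 0.493, 0.297 and 0.582 RPKM in imiquimod libraries, against 1.2, 0.814 and 0.804 RPKM in controls. Its fall (-0.59 ± 0.21, adjusted p = 0.0215) did not pass without imiquimod replicate 2 or control replicate 1 (-0.46 and -0.46). Genes of lymphoid homing split, 3 higher and 4 lower of 7 (median -0.97, and 0.09 with no filter on low values). S1pr1, the receptor by which lymphocytes leave lymphoid organs, had 34.3, 42.4 and 46.4 RPKM in imiquimod libraries, against 139.6, 136 and 129 RPKM in controls (-1.71 ± 0.17). Ccr7 (-1.22 ± 0.19), Gpr183 (-1.10 ± 0.18) and Cxcr5 (-0.97 ± 0.24), which place B and T cells in their zones, fell too. Cxcr4, the receptor of CXCL12, rose by 0.75 ± 0.13, and Hsd3b7, which degrades the Gpr183 ligand, by 1.02 ± 0.18. The follicular chemokine Cxcl13 (1.03 ± 0.38, adjusted p = 0.0263) lost its call without any of 3 libraries (adjusted p up to 0.115, without imiquimod replicate 3). Ccl19 and Ccl21a, the T zone chemokines, were under 1 RPKM in all 6 libraries.

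Fc receptors and complement showed some of the steepest rises. Beside Fcgr4, the high-affinity receptor Fcgr1 had 6.95, 3.96 and 5.08 RPKM in imiquimod libraries, against 0.267, 0.244 and 0.221 RPKM in controls (2.94 ± 0.36). The low-affinity activating receptor Fcgr3 had 38.6, 43.8 and 19.8 RPKM in imiquimod libraries, against 3.95, 4.7 and 5.09 RPKM in controls (2.69 ± 0.34). Their signalling chain Fcer1g had 226, 191 and 136 RPKM in imiquimod libraries, against 20.9, 23.2 and 22.8 RPKM in controls (2.99 ± 0.16). Every imiquimod library was above every control library in all 4. Fcgr2b, the inhibitory receptor, which B cells also carry, had 23.9, 39.8 and 32.3 RPKM in imiquimod libraries, against 39.5, 42.5 and 42.3 RPKM in controls. It was the only member of 5 that did not pass (-0.40 ± 0.18, adjusted p = 0.0624), and it passed as lower under 5 alternatives, among them quantile normalization (-0.55, adjusted p = 0.0065). Of 13 complement genes 11 rose and 1 fell (median 1.05). The 3 chains of C1q, made by tissue macrophages, rose together: C1qb (mm10 chromosome 4, 136880126 to 136886200) had 206, 99.95 and 130.2 RPKM in imiquimod libraries, against 10.5, 8.96 and 11.8 RPKM in controls (3.68 ± 0.28). C1qc rose by 3.49 ± 0.30 and C1qa by 3.27 ± 0.29, and imiquimod replicate 1 was the highest library in each. C3, the central complement component, had 43.5, 59.2 and 24.2 RPKM in imiquimod libraries, against 3.57, 4.28 and 4.35 RPKM in controls (3.14 ± 0.37). Cfp (properdin) rose by 0.91 ± 0.12. The single fall was the receptor Cr2.

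All 20 tested markers of monocytes and inflammatory macrophages rose (20 of 20, median 1.92), where 33.9% of all tested genes did. Ly6c2, the marker of classical monocytes, had 460.0, 379 and 371 RPKM in imiquimod libraries, against 53.6, 52.7 and 49.5 RPKM in controls (2.94 ± 0.33). Csf1r, the growth factor receptor of the lineage, had 74.7, 66.5 and 52.1 RPKM in imiquimod libraries, against 12.6, 15.2 and 14 RPKM in controls (2.16 ± 0.18). The lysosomal glycoprotein Cd68 had 60.1, 50 and 44.9 RPKM in imiquimod libraries, against 12.4, 13.9 and 11.8 RPKM in controls (1.97 ± 0.13). In these genes the imiquimod libraries lay close together, and Ms4a6d had 48.5, 27.7 and 30.2 RPKM in imiquimod libraries, against 1.84, 2.54 and 2.33 RPKM in controls (3.68 ± 0.27). In all 4 genes the lowest imiquimod library was more than 3 times the highest control library. Sirpa (1.55 ± 0.13), and Treml4 (1.86 ± 0.18) and Nr4a1 (1.56 ± 0.16), which mark non-classical monocytes, rose as well.

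Red pulp macrophage and iron-recycling genes rose in full (15 of 15, median 1.5). Spic, the red pulp macrophage gene used above to check the tissue, rose, but its call was not stable. It was lost without imiquimod replicate 1 (0.41, adjusted p = 0.0623), imiquimod replicate 2 (0.43, adjusted p = 0.0531) or control replicate 3 (0.44, adjusted p = 0.0538). With equal totals without haemoglobin genes Spic had 0.20 (adjusted p = 0.335). Slc11a1, the iron exporter of phagosomes, had 48.5, 42.4 and 38.9 RPKM in imiquimod libraries, against 3.8, 4.04 and 3.37 RPKM in controls (3.37 ± 0.15). Itgad, the integrin CD11d of red pulp macrophages, had 37.6, 31.9 and 29.9 RPKM in imiquimod libraries, against 2.3, 2.22 and 2.49 RPKM in controls (3.56 ± 0.19). Adgre1, the macrophage marker F4/80, had 19, 16.4 and 14.4 RPKM in imiquimod libraries, against 3.36, 3.61 and 3.67 RPKM in controls (2.07 ± 0.14). The secreted scavenger Cd5l had 14.3, 9.76 and 12.4 RPKM in imiquimod libraries, against 1.09, 1.26 and 1.42 RPKM in controls (2.83 ± 0.25). Ftl1, the ferritin light chain, rose by 1.28 ± 0.12. Lectins of the marginal zone macrophage list fell: Cd209a (-1.52 ± 0.28), beside Cd209d, and the scavenger receptor Marco (-0.61 ± 0.21, adjusted p = 0.0159; 0.0623 without control replicate 1). Nr1h3 (LXR alpha) and Msr1 rose by 1.52 ± 0.19 and 1.20 ± 0.37, so the list of 6 split into 2 higher and 3 lower. Siglec1 and Cd209b, defining markers of metallophilic and marginal zone macrophages, were under 1 RPKM in all 6 libraries and were not tested. Genes of alternative activation mostly rose: with Retnla included, 6 of 8 rose and 2 fell. Chil3 (Ym1), which immature neutrophils also make, had 632, 817 and 262 RPKM in imiquimod libraries, against 17.4, 23.3 and 27.8 RPKM in controls (4.49 ± 0.46). The mannose receptor Mrc1 rose by 1.46 ± 0.23, Ear2 by 2.58 ± 0.44 and the lectin Mgl2 by 1.18 ± 0.24, while Pdcd1lg2 (PD-L2) fell (-0.44 ± 0.14; adjusted p = 0.0541 without control replicate 3).

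Neutrophil genes of early and late maturation rose. Of the azurophil granule list 12 of 13 rose and 0 fell (median 3.68), of the specific and gelatinase granule list 12 of 13 (median 3.52), and of the mature neutrophil list 14 of 15 (median 2.73). Azurophil proteins are made by promyelocytes. Mpo, myeloperoxidase, had 124, 133 and 58.8 RPKM in imiquimod libraries, against 4.11, 5.51 and 5.83 RPKM in controls (4.15 ± 0.48). Elane, neutrophil elastase, had 160.2, 159 and 52.2 RPKM in imiquimod libraries, against 3.1, 4.71 and 5.5 RPKM in controls (4.52 ± 0.54). Prtn3, proteinase 3, had 170.4, 158 and 49.9 RPKM in imiquimod libraries, against 2.82, 3.71 and 4.24 RPKM in controls (4.78 ± 0.61). In all 3 genes replicate 3 was the lowest imiquimod library and still exceeded every control. Ctsg (4.61 ± 0.60), the lectin Fcnb (4.19 ± 0.41) and Ms4a3 (4.09 ± 0.49), a marker of granulocyte-monocyte precursors, followed, as did Igsf6 (2.23 ± 0.25). Calr (0.87 ± 0.10), listed for its role in myeloperoxidase folding, is also an ER chaperone of secretory cells.

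In the later granule genes given by library here, replicate 2 was the highest imiquimod library and replicate 3 was again the lowest. Ltf, lactoferrin of specific granules, had 466, 658 and 194 RPKM in imiquimod libraries, against 23, 24.4 and 35.2 RPKM in controls (3.83 ± 0.46). Camp, the cathelicidin precursor, had 1725, 2173 and 608 RPKM in imiquimod libraries, against 51.6, 61.6 and 88.2 RPKM in controls (4.32 ± 0.48). Neutrophilic granule protein, Ngp, had 1957, 2764 and 736 RPKM in imiquimod libraries, against 69.4, 82.6 and 119 RPKM in controls (4.16 ± 0.47). Lcn2, which binds bacterial siderophores, had 875, 1159 and 280.4 RPKM in imiquimod libraries, against 29.9, 34.4 and 45.9 RPKM in controls (4.17 ± 0.51). Cd177 rose by 3.79 ± 0.46. S100a8 (mm10 chromosome 3, 90669071 to 90670034), a calprotectin subunit, had 5157, 6606 and 1658 RPKM in imiquimod libraries, against 153, 191 and 246 RPKM in controls (4.31 ± 0.51). The partner subunit S100a9 had 5095, 6652 and 1584 RPKM in imiquimod libraries, against 178, 203 and 267 RPKM in controls (4.14 ± 0.50). The formyl peptide receptors Fpr2 and Fpr1 rose by 3.46 ± 0.36 and 2.91 ± 0.34, Wfdc21 by 4.13 ± 0.52 and the decoy receptor Il1r2 by 2.06 ± 0.30. Without replicate 3 the medians of the 3 lists were 4.24, 4.08 and 3.29, and without replicate 2 they were 3.32, 3.15 and 2.17. Subunits of the phagocyte oxidase had smaller log2 fold changes: Cybb (0.89 ± 0.19) and Cyba (0.58 ± 0.16, lost under quantile normalization) rose, Ncf1 (0.37 ± 0.24) and Ncf4 (0.38 ± 0.22) did not pass, and Ncf4 passed without imiquimod replicate 3 (0.58, adjusted p = 0.039). Padi4, the deiminase of neutrophils, stayed near 0 in these libraries while the neutrophil lists rose.

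Eosinophil, basophil and mast cell genes rose in part. Of 8 eosinophil genes 6 rose and 1 fell. Beside Prg2, the ribonucleases Ear6 and Ear1 rose by 2.64 ± 0.34 and 2.59 ± 0.33, and the eotaxin receptor Ccr3 by 1.43 ± 0.21; the Ear genes are close copies that may share reads. Il5ra, the interleukin 5 receptor, which some B cells also carry, fell (-0.61 ± 0.12). Of 9 mast cell and basophil genes 6 rose and 1 fell. The basophil protease Mcpt8 had 45.8, 19.2 and 15.8 RPKM in imiquimod libraries, against 1.31, 1.96 and 2.62 RPKM in controls (3.35 ± 0.46). Prss34, another basophil protease, had 42.9, 25.5 and 20.3 RPKM in imiquimod libraries, against 1.6, 1.51 and 2.49 RPKM in controls (3.62 ± 0.40). Hdc, the histamine-forming enzyme, rose by 2.46 ± 0.42 and Gata2 by 0.95 ± 0.25, whereas the mast cell chymase Cma1 fell (-1.47 ± 0.23), with 2.46, 1.13 and 1.42 RPKM in imiquimod libraries, against 4.29, 5.39 and 6.45 RPKM in controls.

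Dendritic cell genes moved in both directions. Of 13 conventional dendritic cell genes 7 rose and 2 fell (median 0.43), and with equal totals without haemoglobin genes 5 rose and 4 fell. Cadm1 (2.05 ± 0.17), the integrin Itgax (1.51 ± 0.18) and Xcr1 (0.79 ± 0.18) rose, of which Xcr1 marks the cross-presenting subset; Cd4, on other dendritic cells and on T cells, fell (-0.67 ± 0.15). Plasmacytoid dendritic cells are the main interferon source after TLR7 stimulation, and their list split evenly, 7 higher and 7 lower of 14. Siglech, the surface marker of the type, had 2.51, 2.91 and 3.12 RPKM in imiquimod libraries, against 6.74, 8.23 and 6.39 RPKM in controls (-1.18 ± 0.14). The homing receptor Ccr9 had 1.06, 1.33 and 1.44 RPKM in imiquimod libraries, against 4.13, 3.47 and 4.55 RPKM in controls (-1.36 ± 0.11). Tcf4, their master regulator, fell (-0.61 ± 0.17), as did Ly6d (-0.89 ± 0.24) and Klk1 (-2.06 ± 0.34). Pacsin1 (-0.64 ± 0.21) and Spib (-0.63 ± 0.26) fell too, and lost their calls without imiquimod replicate 1 (adjusted p = 0.0834 for Pacsin1 and 0.228 for Spib). Members that rose include Klra17 (2.03 ± 0.17) and Smim5 (1.74 ± 0.26), and Ly6c2, which monocytes express as well.

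Red cell precursor genes rose. The membrane and enzyme list had 14 of 15 higher (median 3.03), and 11 higher with a median of 2.28 without the haemoglobin-rich replicate 1. Car1, carbonic anhydrase 1, had 140.4, 93.3 and 112 RPKM in imiquimod libraries, against 8.37, 11.1 and 6.34 RPKM in controls (3.68 ± 0.44). Cldn13, a claudin of red cell precursors in mice, had 88.5, 22.7 and 29.5 RPKM in imiquimod libraries, against 2.99, 1.99 and 0.988 RPKM in controls (4.08 ± 0.67). Rhag, of the Rh complex, had 79.2, 12.5 and 20.4 RPKM in imiquimod libraries, against 2.23, 1.1 and 0.99 RPKM in controls (3.90 ± 0.77). Replicate 1 was the highest in each, and replicates 2 and 3 also lay above all controls. Car2 (2.83 ± 0.59) and Tspo2 (2.15 ± 0.43) rose too. Haem synthesis genes rose in 6 of 12 (median 1.41, 0.72 without replicate 1), where 33.9% of all tested genes rose. Cpox (1.95 ± 0.50), Alad (1.85 ± 0.38), Urod (1.37 ± 0.39) and Snx3 (0.40 ± 0.07, lost under quantile normalization) rose.

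None of the 6 tested haemoglobin and globin chaperone genes passed. Hbb-b1 had 15799.7, 945 and 3117 RPKM in imiquimod libraries, against 1751, 1111 and 1032 RPKM in controls. Imiquimod replicate 1 was far above the highest control while replicate 2 was below all controls, and the log2 fold change of 1.51 ± 0.93 had an adjusted p of 0.158. Hba-a1 (1.45 ± 0.97, adjusted p = 0.193), Hbb-bs (1.65 ± 1.04, adjusted p = 0.169), and Hbb-b2 and Hbb-bt, which are listed with the same values (1.59 ± 1.02, adjusted p = 0.173), had the same order of libraries; these are near-identical copies whose split is uncertain. Without replicate 1 none passed and the median of the list was 0.42, against 1.55 with it (Hbb-b1 0.44, adjusted p = 0.672). Without replicate 2 all 6 passed as higher (Hbb-b1 2.48, adjusted p = 0.0268). Among erythroid regulators 9 of 12 rose and 2 fell (median 2.94; 2.68 without replicate 1). Nfe2 (3.16 ± 0.39), Cited4 (3.0 ± 0.35), Gfi1b (2.91 ± 0.37) and E2f2 (2.05 ± 0.23) rose, and Gfi1b, a repressor needed for red cell and platelet formation, had 9.56, 7.79 and 9.18 RPKM in imiquimod libraries, against 0.879, 0.809 and 0.549 RPKM in controls. Ldb1 (-0.85 ± 0.09) and Bcl11a (-0.99 ± 0.16), which lymphocytes also express, fell.

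Megakaryocyte and platelet genes rose as well, 14 of 16 (median 2.30). Pf4 had 70.4, 24.3 and 61.5 RPKM in imiquimod libraries, against 5.66, 3.62 and 4.57 RPKM in controls. Gp9 and Gp1bb, subunits of the von Willebrand factor receptor, rose by 3.41 ± 0.56 and 2.94 ± 0.55, with 28.3, 7.94 and 24.7 RPKM in imiquimod libraries, against 1.63, 1.09 and 1.02 RPKM in controls for Gp9. Replicate 2 was the lowest of the imiquimod libraries in each, above all controls. Plek rose by 0.57 ± 0.11. Progenitor genes rose in 7 of 10 (median 0.77): Myb had 11.4, 11.4 and 11.3 RPKM in imiquimod libraries, against 3.66, 4.51 and 3.68 RPKM in controls (1.42 ± 0.16), and Cd34 (1.93 ± 0.27), Erg (1.66 ± 0.25), Angpt1 (0.82 ± 0.17) and Cdk6 (0.73 ± 0.11) rose.

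**Figure D3:**
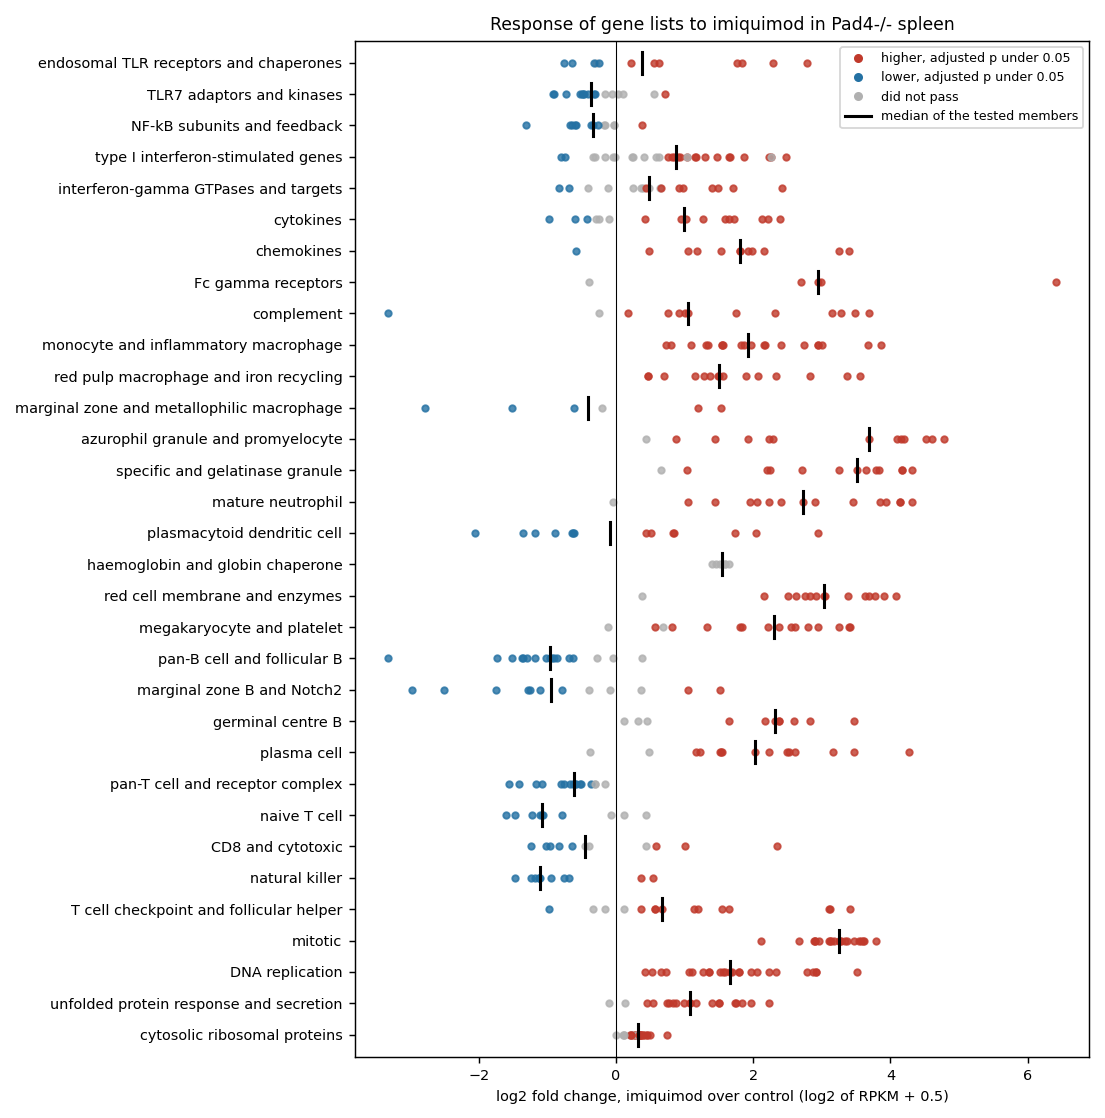
Log2 fold change, imiquimod over control in Pad4-/- spleen, of the tested members of 32 gene lists (1 point per gene; red rose, blue fell, grey did not pass at an adjusted p of 0.05; black bars are medians). The mitotic, azurophil granule and red cell membrane lists are among those that lie furthest to the right with medians of 3.26, 3.68 and 3.03, and the natural killer, naive T and pan-B lists furthest to the left of the lists shown, with -1.11, -1.08 and -0.96.

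B cell genes fell. Of the pan-B and follicular list 14 of 17 fell and 0 rose (median -0.96), where 36.1% of all tested genes fell. Beside Cr2, Fcer2a (CD23) had 47, 60.6 and 56.8 RPKM in imiquimod libraries, against 152, 144 and 129 RPKM in controls (-1.37 ± 0.20). Ralgps2, a GTPase exchange factor, had 8.86, 17.7 and 16.5 RPKM in imiquimod libraries, against 46, 48.6 and 47.3 RPKM in controls (-1.74 ± 0.27). Ebf1, a transcription factor that defines the lineage, had 4.32, 10.6 and 9.62 RPKM in imiquimod libraries, against 22.9, 24.1 and 21.7 RPKM in controls (-1.52 ± 0.28). Replicate 1 was the lowest library in each, and without it 12 fell and 1 rose, with a median of -0.70. Fcmr, the IgM receptor, fell (-0.94 ± 0.20). The marginal zone list did likewise. Marginal zone B cells depend on Notch2 signals, and 7 of 12 genes of that list fell and 2 rose. Cd1d1, which presents lipids, had 7.27, 10.6 and 10.2 RPKM in imiquimod libraries, against 32.5, 32.4 and 31.8 RPKM in controls (-1.75 ± 0.17). The Notch target Hes1 fell (-1.10 ± 0.18), as did Pik3r4 (-1.29 ± 0.15). Cd9 (1.04 ± 0.20) and Mzb1 (1.51 ± 0.26), which plasma cells share, rose.

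Germinal centre and plasma cell genes rose in the same libraries. Of 11 germinal centre genes 8 rose and 0 fell (median 2.32). S1pr2, which confines germinal centre B cells, had 9.12, 14 and 14.6 RPKM in imiquimod libraries, against 1.88, 1.94 and 2.44 RPKM in controls (2.32 ± 0.26). Nuggc, a nuclear GTPase of germinal centres, had 3.06, 5.55 and 5.68 RPKM in imiquimod libraries, against 0.183, 0.164 and 0.312 RPKM in controls (2.83 ± 0.38). All imiquimod libraries lay above the controls, with replicate 1 the lowest of the 3. Basp1 (2.38 ± 0.19) and Gcsam (2.37 ± 0.37) rose also. Of 15 plasma cell genes 13 rose (median 2.03). Jchain, which joins IgM and IgA into polymers, had 1429.6, 728 and 1326 RPKM in imiquimod libraries, against 43.5, 65.6 and 65.5 RPKM in controls (4.27 ± 0.37). Xbp1, the transcription factor of secretory cells, had 173, 127 and 189 RPKM in imiquimod libraries, against 33.8, 34.2 and 33.6 RPKM in controls (2.23 ± 0.18). The BAFF and APRIL receptor Tnfrsf17 (BCMA) had 2.99, 4.14 and 5.52 RPKM in imiquimod libraries, against 0.155, 0.415 and 0.211 RPKM in controls (2.61 ± 0.22). Fkbp11 (3.47 ± 0.27), Derl3 (3.16 ± 0.25) and Txndc5 (2.03 ± 0.18), of the secretory pathway, rose, and replicate 2 was the lowest imiquimod library in Fkbp11 and Derl3. The other receptors of the axis, Tnfrsf13b (TACI) and Tnfrsf13c (BAFF receptor), carried by B cells, fell (-0.94 ± 0.19 and -0.95 ± 0.24), while their ligands rose. Genes listed for age-associated B cells, a population that grows with TLR7 signals in mice, rose in 7 of 9 (median 0.67, and 4 higher and 1 lower with equal totals without haemoglobin genes). Cxcr3, a chemokine receptor also of T cells, had 36.2, 34.2 and 47.2 RPKM in imiquimod libraries, against 12, 12.2 and 11.4 RPKM in controls (1.67 ± 0.13). Zeb2 (0.82 ± 0.12), Itgax, Itgam (2.17 ± 0.28) and Cd80 (0.35 ± 0.11, lost with equal totals without haemoglobin genes) rose. Itgax and Itgam are also genes of myeloid cells, whose markers rose.

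Genes of protein folding and secretion in the ER rose in 18 of 20 (median 1.07). They include Hsp90b1, given above, Sdf2l1 (1.96 ± 0.16), Manf (1.75 ± 0.13), Pdia6 (1.73 ± 0.14) and Ssr2 (1.5 ± 0.09). Pdia6, a disulfide isomerase, had 163, 144 and 187 RPKM in imiquimod libraries, against 49.1, 49.1 and 49.2 RPKM in controls, its controls lying within 1 RPKM of each other. The ER stress response element, CCAAT, any 9 bases and CCACG on either strand, was in the 250 bases before the start of 6 of 16 of these genes in the RefSeq table (37.5%), against 0.168% of 9552 tested genes; its first 5 letters are also those of the CCAAT box. The promoters of Pdia6 (chr12:17266339-17266588, plus strand) and Hsp90b1 (chr10:86705445-86705694, minus strand), which rose by 1.73 and 1.84, show 1 match and 2 matches in capitals.
Pdia6: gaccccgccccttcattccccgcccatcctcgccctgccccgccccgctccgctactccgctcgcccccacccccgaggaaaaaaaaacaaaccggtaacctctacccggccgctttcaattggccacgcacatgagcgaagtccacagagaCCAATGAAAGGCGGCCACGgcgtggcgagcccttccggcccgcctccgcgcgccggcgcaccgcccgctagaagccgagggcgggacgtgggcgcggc
Hsp90b1: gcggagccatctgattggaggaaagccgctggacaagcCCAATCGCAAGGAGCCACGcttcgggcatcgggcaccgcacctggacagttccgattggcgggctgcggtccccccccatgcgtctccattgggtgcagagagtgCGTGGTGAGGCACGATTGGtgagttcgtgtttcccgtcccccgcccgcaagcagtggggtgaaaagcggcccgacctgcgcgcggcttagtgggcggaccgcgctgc

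T cell genes fell. Of the receptor complex list 13 of 16 fell and 0 rose (median -0.61). Trat1 (-1.41 ± 0.22), Thy1 (-1.17 ± 0.14), the adaptor Lat (-0.80 ± 0.13) and Cd3e (-0.75 ± 0.13) fell. Cd4, the co-receptor of helper T cells, had 35, 36.4 and 48.1 RPKM in imiquimod libraries, against 65.4, 59.5 and 64.1 RPKM in controls, and replicate 3 was the highest imiquimod library. Of the naive T cell list 7 of 10 fell and 0 rose (median -1.08). Lef1, a transcription factor of the naive state, had 11.1, 10.3 and 13.2 RPKM in imiquimod libraries, against 39.1, 31.8 and 37.5 RPKM in controls (-1.61 ± 0.19). Satb1 (-1.47 ± 0.19), Il7r (-1.11 ± 0.17), Foxp1 (-1.07 ± 0.16) and Ccr7 fell, with no overlap between the groups. Satb1 and Foxp1 are expressed by B cells as well.

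Checkpoint and follicular helper genes rose against this fall. Of 15 tested, 11 rose and 1 fell (median 0.66). Pdcd1 (PD-1) had 24.3, 18.3 and 32 RPKM in imiquimod libraries, against 2.18, 1.56 and 1.75 RPKM in controls (3.42 ± 0.20, adjusted p = 2.73e-09). Tigit had 25.9, 24 and 41.1 RPKM in imiquimod libraries, against 3.07, 3.31 and 2.66 RPKM in controls (3.10 ± 0.18). Lag3, another inhibitory receptor, had 20.7, 15.6 and 29.2 RPKM in imiquimod libraries, against 2.19, 1.85 and 1.93 RPKM in controls (3.12 ± 0.19); replicate 3 was the highest library in all 3 genes. Maf rose by 1.55 ± 0.15, Il21 as given above, and Ctla4 by 1.19 ± 0.25. Cxcr5, the follicle-homing receptor that B cells carry in large part, fell. Of the regulatory T cell genes, 3 of 8 rose and 1 fell, where 33.9% of all tested genes rose. Tnfrsf9 (1.43 ± 0.26), Ctla4 and Ikzf2 (0.76 ± 0.22) rose, Tnfrsf18 (GITR) fell (-0.40 ± 0.13), and Itgae did not pass (0.36 ± 0.18, adjusted p = 0.0877; 0.0318 with only the 6 Pad4-/- libraries).

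NK genes fell, and CD8 and cytotoxic genes moved in both directions. Of 11 CD8 and cytotoxic genes 5 fell and 3 rose (median -0.45), shares near those of all tested genes (36.1% fell and 33.9% rose). Cd8a (mm10 chromosome 6, 71373427 to 71379171), a chain of the co-receptor, had 19.1, 18.2 and 19 RPKM in imiquimod libraries, against 40, 33.5 and 38.4 RPKM in controls (-0.97 ± 0.14, adjusted p = 1.88e-05). Cd8b1, the partner chain, had 51.7, 38.1 and 40.2 RPKM in imiquimod libraries, against 62.9, 55.8 and 57.7 RPKM in controls. Its libraries did not overlap but it did not pass (-0.45 ± 0.21, adjusted p = 0.0679). It passed as lower under 5 alternatives, among them equal totals without haemoglobin genes (-0.73, adjusted p = 0.00453), quantile normalization (-0.66, adjusted p = 0.0113) and only the 6 Pad4-/- libraries in the fit (adjusted p = 0.0115). Gzma (-1.24 ± 0.19), the pore-forming Prf1 (-1.02 ± 0.13) and the cathepsin Ctsw (-0.83 ± 0.10) fell. Gzmk, a granzyme of memory T cells, had 2.4, 1.93 and 2.52 RPKM in imiquimod libraries, against 0.0793, 0.0266 and 0.0361 RPKM in controls. It rose (2.34 ± 0.25) against the list, and so did Gzmb (1.01 ± 0.30). Eomes (0.58 ± 0.24, adjusted p = 0.0428) lost its call without any of 4 libraries (adjusted p up to 0.218, without imiquimod replicate 3). Of 11 NK genes 9 fell and 2 rose (median -1.11); without imiquimod replicate 3, 8 fell and 0 rose. The activating receptor Ncr1 (NKp46) had 4.6, 4.57 and 4.44 RPKM in imiquimod libraries, against 13.4, 15.9 and 11.4 RPKM in controls (-1.47 ± 0.14). Klrd1 (CD94) had 8.47, 9.34 and 9.77 RPKM in imiquimod libraries, against 20.2, 22.9 and 18.8 RPKM in controls (-1.12 ± 0.10). Klrb1c (NK1.1), Klri2 and the kinase Txk fell (-1.11 ± 0.15, -1.18 ± 0.12 and -1.12 ± 0.15). Tbx21 (0.54 ± 0.17) and Il2rb (0.36 ± 0.13), shared with activated T cells, rose and lost their calls without imiquimod replicate 3 (adjusted p = 0.0675 and 0.0995).

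Genes of cell division rose throughout both lists. All 21 of 21 mitotic genes (median 3.26) and all 25 of 25 DNA replication genes (median 1.66) were higher, against 33.9% of all genes, and both sets had no overlap between the groups. Cdk1 (mm10 chromosome 10, 69335146 to 69352912), the kinase that starts mitosis, had 25.5, 22.1 and 21.2 RPKM in imiquimod libraries, against 1.61, 1.64 and 1.27 RPKM in controls (3.55 ± 0.14, adjusted p = 9.13e-11). Cdc20, an activator of the anaphase-promoting complex, had 49.8, 55 and 52 RPKM in imiquimod libraries, against 5.14, 5.31 and 4.37 RPKM in controls (3.28 ± 0.13). Bub1b, of the spindle checkpoint, had 18.5, 22.3 and 20.2 RPKM in imiquimod libraries, against 1.51, 1.89 and 1.2 RPKM in controls (3.37 ± 0.14). The 3 imiquimod libraries lay close together in these genes, unlike in granule or red cell genes. Aurkb (2.89 ± 0.12) and Kif20a (2.90 ± 0.12) rose too. For replication, Rrm2, the subunit of ribonucleotide reductase that makes DNA precursors, had 72.9, 72.8 and 78.2 RPKM in imiquimod libraries, against 6.71, 6.2 and 5.41 RPKM in controls (3.51 ± 0.20). Cdc45 (2.91 ± 0.12), Mcm10 (2.88 ± 0.15), Gins2 (2.78 ± 0.14) and Gins1 (2.23 ± 0.12), parts of the helicase at the fork, rose.

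The Cdk1 promoter is shown because it holds both letter patterns known from cell-cycle promoters. The CHR element TTTGAA on either strand was in the 250 bases before the start of 8 of 18 mitotic genes in the RefSeq table (44.4%), against 13% of 9552 tested genes, and CCAAT in 15 of 18 (83.3%), against 40.9%. In Cdk1 (chr10:69352913-69353162, minus strand) capitals mark TTTGAA and the CCAAT box on either strand, so that a box on the other strand shows as its reverse complement.
Cdk1: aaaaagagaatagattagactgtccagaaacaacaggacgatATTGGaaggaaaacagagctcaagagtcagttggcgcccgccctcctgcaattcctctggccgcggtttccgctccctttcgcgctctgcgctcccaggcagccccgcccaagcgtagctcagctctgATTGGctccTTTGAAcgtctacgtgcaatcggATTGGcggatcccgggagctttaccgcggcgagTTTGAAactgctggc

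Other patterns were counted in the same way, namely the GATA site AGATAA in 3 of 8 red cell membrane genes (37.5%, against 7.58% of all), and the sterol element TCACCCCAC in 1 of 11 cholesterol genes (9.09%, against 0.628%).

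Energy and biosynthesis genes rose moderately. Of the glycolysis list 13 of 14 rose (median 0.97). The glycolytic isomerase Tpi1 had 128, 129 and 150.3 RPKM in imiquimod libraries, against 34.7, 36.6 and 32.7 RPKM in controls (1.95 ± 0.09), with Gapdh, Pgk1, Hk2 and Ldha higher by 1.48, 1.39, 1.18 and 1.07. The glucose transporter Slc2a1 fell (-0.38 ± 0.12; adjusted p = 0.0517 without imiquimod replicate 1). Oxidative phosphorylation genes rose in 17 of 19 (median 0.75). Cox5a, a subunit of complex IV, had 133, 135 and 135 RPKM in imiquimod libraries, against 69.7, 65 and 65.8 RPKM in controls (1.0 ± 0.07). Ndufb8 (1.0), Atp5o (0.92), Atp5b (0.85) and Atp5c1 (0.75) rose by similar amounts. Of 17 cholesterol synthesis genes 9 rose and 1 fell (median 0.34), where 33.9% of all tested genes rose and 36.1% fell. Fdps, farnesyl diphosphate synthase, had 24.4, 26.5 and 28.7 RPKM in imiquimod libraries, against 11.6, 11.3 and 10.3 RPKM in controls (1.22 ± 0.08). Idi1 (0.73), Nsdhl (0.72), Pmvk (0.63) and Fdft1 (0.61) rose, and Lss fell (-0.49 ± 0.14). Of the ribosomal protein genes 19 of 26 rose, with a median of 0.31. This direction depends on scaling: under quantile normalization 1 rose and 5 fell (median -0.11), and with equal totals without haemoglobin genes 4 rose and 3 fell. Rps2 (0.75 ± 0.09), Rplp0 (0.49 ± 0.08), Rpl3 (0.45 ± 0.08), Rpl32 (0.45 ± 0.11) and Rpl10a (0.40 ± 0.10) had the smallest p, and of these Rps2 alone passed under quantile normalization.

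Lysosomal genes rose in 16 of 18 (median 0.59), led by Ctsb, Grn (1.43 ± 0.10), Lamp1 (1.03 ± 0.13), Ctsa (0.68 ± 0.07) and Lipa (0.57 ± 0.07). Inflammasome genes rose in 8 of 13 and fell in 3: the adaptor Pycard (ASC) had 49, 44.9 and 49.2 RPKM in imiquimod libraries, against 17.8, 18.3 and 18.3 RPKM in controls (1.37 ± 0.15). Casp4 rose (0.74 ± 0.17), and Nlrc4 fell (-0.98 ± 0.19), while Gsdmd (-0.25 ± 0.10, adjusted p = 0.0383) lost its call without any of 5 libraries (adjusted p up to 0.14, without imiquimod replicate 1). Cytosolic nucleic acid sensors split, 6 higher and 6 lower of 13: Mavs (-0.53 ± 0.09), Aim2 (-0.63 ± 0.17), Ifi203 (-0.60 ± 0.15) and Adar (-0.42 ± 0.12) fell as did Ddx58, Ifih1 rose, and Tmem173 (STING; -0.38 ± 0.15, adjusted p = 0.0379) lost its call without any of 4 libraries (adjusted p up to 0.152, without imiquimod replicate 1). Under quantile normalization 3 sensors rose and 6 fell, and with equal totals without haemoglobin genes 1 rose and 6 fell. With RPKM as deposited, 33.9% of all tested genes rose and 36.1% fell. The metallothioneins, zinc-binding proteins, rose steeply. Mt2 had 26.4, 29.9 and 28.3 RPKM in imiquimod libraries, against 0.903, 1.48 and 1.23 RPKM in controls (4.09 ± 0.35). Mt1 had 57.2, 56.6 and 50.7 RPKM in imiquimod libraries, against 4.17, 4.82 and 4.8 RPKM in controls (3.44 ± 0.29). The zinc importer Slc39a8 rose by 1.37 ± 0.30, Slc39a4 by 0.30 ± 0.11 (lost without any of 4 libraries; adjusted p up to 0.103, without control replicate 3), and Slc39a14 fell (-0.53 ± 0.15).

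Immediate early genes are known to move with tissue handling and were checked as a list. They rose in 7 of 15 and fell in 2 (median 0.30), where 33.9% of all tested genes rose and 36.1% fell. With equal totals without haemoglobin genes 5 of the list rose and 4 fell. Fos had 4.59, 8.92 and 5.24 RPKM in imiquimod libraries, against 1.25, 1.14 and 1.26 RPKM in controls (1.92 ± 0.25). Jun (1.55 ± 0.13), Atf3 (1.61 ± 0.13) and Dusp1 (1.11 ± 0.14) rose, and Egr3 (-1.11 ± 0.21) and Zfp36 (-0.63 ± 0.15) fell. The summed RPKM of the list was 541, 595 and 579 RPKM in imiquimod libraries, against 562, 517 and 520.1 RPKM in controls, which overlapped between the groups. Chaperones of the HSP90 and HSP70 system rose in 9 of 14 and fell in 1 (median 0.52). Those that rose include Hsp90aa1 (1.20 ± 0.11), Hspe1 (0.75), Cacybp (0.56), Hspa8 (0.55, lost under quantile normalization) and Ahsa1 (0.48). Chordc1 fell (-0.35 ± 0.11), with an adjusted p of 0.0678 without control replicate 3 and 0.0514 without imiquimod replicate 2. The part of handling in these values was not tested.

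Stromal and vessel genes were scarce. Only 3 of 15 stromal markers passed the filter, and Col1a1, Col3a1, Dcn and Lum were under 1 RPKM in all 6 libraries. Acta2 (0.99 ± 0.24, lost under quantile normalization) rose, and Tagln (-0.35 ± 0.14, adjusted p = 0.0354) lost its call without any of 4 libraries (adjusted p up to 0.157, without imiquimod replicate 1). Of 6 tested endothelial genes 5 rose, all at low levels: Plvap had 3.45, 4.91 and 4.42 RPKM in imiquimod libraries, against 0.669, 1.1 and 1.02 RPKM in controls (1.74 ± 0.31). Egfl7 (2.1 ± 0.28), Tie1 (1.5 ± 0.24), Cldn5 (1.31 ± 0.28) and Cdh5 (0.62 ± 0.17, lost under quantile normalization) followed. Of the adipocyte and pancreas list, Fabp4, which macrophages also make, had 20.3, 20.2 and 16.4 RPKM in imiquimod libraries, against 0.461, 1.08 and 0.503 RPKM in controls (4.07 ± 0.20). Cela1, an elastase, rose by 2.15 ± 0.28, while the defining markers Adipoq, Plin1, Cpa1, Amy2a5 and Pnlip were under 1 RPKM in all 6 libraries. Xist, the RNA of the inactive X chromosome, had 15.6, 22.2 and 25.6 RPKM in imiquimod libraries, against 33.4, 37.5 and 39.6 RPKM in controls (-0.81 ± 0.17), and Y-linked Eif2s3y, Kdm5d and Uty were listed at 0 in all 6 libraries.

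The Pad4-/- response was then set beside those of the other genotypes. Imiquimod raised 4062 and lowered 4325 genes in Pad4-/- spleen, 4823 and 3984 in WT spleen, and 4348 and 4395 in Pad2-/- spleen. The difference between the Pad4-/- and WT responses passed for 8 of 11982 genes (0.0668%), 6 higher and 2 lower. At an unadjusted limma p under 0.05 there were 1729 genes, of which 225 were higher and 1504 lower. This split depends on scaling: it was 741 higher and 941 lower with median-ratio scaling, and 762 and 840 with quantile normalization. The difference from Pad2-/- passed for 10 (0.0835%), 7 higher and 3 lower (699 unadjusted). Both differences use the same 6 Pad4-/- libraries. The list medians can be set side by side, without a test. For mitotic genes the median was 3.26 in Pad4-/-, 3.46 in WT and 2.98 in Pad2-/- spleen. For specific granule genes it was 3.52 in Pad4-/-, 3.09 in WT and 3.03 in Pad2-/-. For azurophil granule genes it was 3.68 in Pad4-/-, 3.30 in WT and 3.01 in Pad2-/-. Mature neutrophil genes had the other order, with 2.73 in Pad4-/-, 2.93 in WT and 3.01 in Pad2-/-. For germinal centre genes it was 2.32 in Pad4-/-, 1.80 in WT and 1.32 in Pad2-/-, and for pan-B cell genes -0.96 in Pad4-/-, -1.48 in WT and -1.63 in Pad2-/-. Such medians are differences, not levels. Camp, the largest rise of the specific granule list, averaged 1502 RPKM with imiquimod and 67.1 RPKM without in Pad4-/-. It averaged 1693 and 139 RPKM in WT, and 2150 and 252 RPKM in Pad2-/-. Prtn3, the largest of the azurophil list, averaged 126 and 3.59 RPKM in Pad4-/-, 219 and 6.82 in WT, and 181 and 11.1 in Pad2-/-. In both genes both Pad4-/- means were lowest, and imiquimod libraries spread widely. Whole-list levels were not compared. The count against WT depends strongly on 1 library: without WT imiquimod replicate 2, 41 genes were higher and 716 lower.

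Of the 6 genes whose response was higher in Pad4-/- than in WT spleen, 5 are known from CD8 T and NK cells: Cd8a, Cd8b1, Gzmm, Klrd1 and Ctsw. All 6 fell in WT spleen, and the log2 fold change was closer to 0 in Pad4-/- spleen, where Cd8b1 and Gzmm did not pass with RPKM as deposited. Gzmm passed as lower in Pad4-/- under quantile normalization (-0.34, adjusted p = 0.023), with equal totals without haemoglobin genes (-0.44, adjusted p = 0.00586) and without Pad4-/- control replicate 1 (adjusted p = 0.0435). Cd8a averaged 18.8 ± 0.498 RPKM in Pad4-/- imiquimod libraries and 37.3 ± 3.37 RPKM in Pad4-/- controls, and 5.03 ± 1.27 RPKM in WT imiquimod libraries and 31.8 ± 1.35 RPKM in WT controls (SD, n = 3 each). The response was thus -0.97 in Pad4-/- and -2.57 in WT, a difference of 1.60 ± 0.19, adjusted p = 0.00347. Cd8b1 averaged 43.3 ± 7.3 RPKM with imiquimod and 58.8 ± 3.69 RPKM without in Pad4-/- spleen, and 10.5 ± 3.84 RPKM with imiquimod and 52.9 ± 1.97 RPKM without in WT spleen (SD, n = 3 each), a difference in response of 1.91 ± 0.30, adjusted p = 0.0169. Gzmm, granzyme M, which did not pass in Pad4-/- spleen (-0.21 ± 0.12), fell in WT (-1.63), a difference of 1.42 ± 0.17, adjusted p = 0.00347. The differences were 1.06 ± 0.14, adjusted p = 0.00364, for Klrd1, 1.05 ± 0.14, adjusted p = 0.00364, for Ctsw, and 0.91 ± 0.16, adjusted p = 0.0485, for Samd3. All imiquimod values of these 6 genes were higher in Pad4-/- than in WT. Samd3, the smallest of the differences and beyond the 5 largest that the naming rule takes, is named after its values were seen.

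Some of these calls depend on the fit. Cd8b1, Gzmm, Klrd1 and Samd3 lost their calls with the replicate number as a block within genotype, and Ctsw, Gzmm, Klrd1 and Samd3 with group-wise weights, while Cd8a passed under both. Cd8b1 also lost its call without any of 6 libraries (adjusted p up to 0.0756), with no filter (0.0714) and in the fit of 12 libraries (0.0715). Samd3 lost its call without any of 10 libraries (adjusted p up to 0.183), with a pseudocount of 1 and with no filter. It also did so with equal totals without haemoglobin genes and in the fit of 12 libraries. Over the 2 lists, the Pad4-/- response was above the WT response in 11 of 11 CD8 and cytotoxic genes (median difference 0.72) and 11 of 11 NK genes (median difference 0.74), where 35.5% of all tested genes were above (median -0.08). Against Pad2-/- the counts were 11 of 11 (median 0.33) and 11 of 11 (median 0.38), where 48.2% of all genes were above. Other lists leaned to 1 side as well. The Pad4-/- response was above the WT response in 11 of 11 class II genes (median difference 0.28), 16 of 17 pan-B genes (0.48) and 25 of 26 ribosomal protein genes (0.22), and in 0 of 21 mitotic genes (-0.22) and 0 of 25 replication genes (-0.45). Against Pad2-/- it was above in 11 of 11 class II genes (0.38), 17 of 17 pan-B genes (0.67) and 26 of 26 ribosomal protein genes (0.36). Genes within these lists share cells and are not independent, and the lists were chosen with earlier results of these data known.

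**Figure D4:**
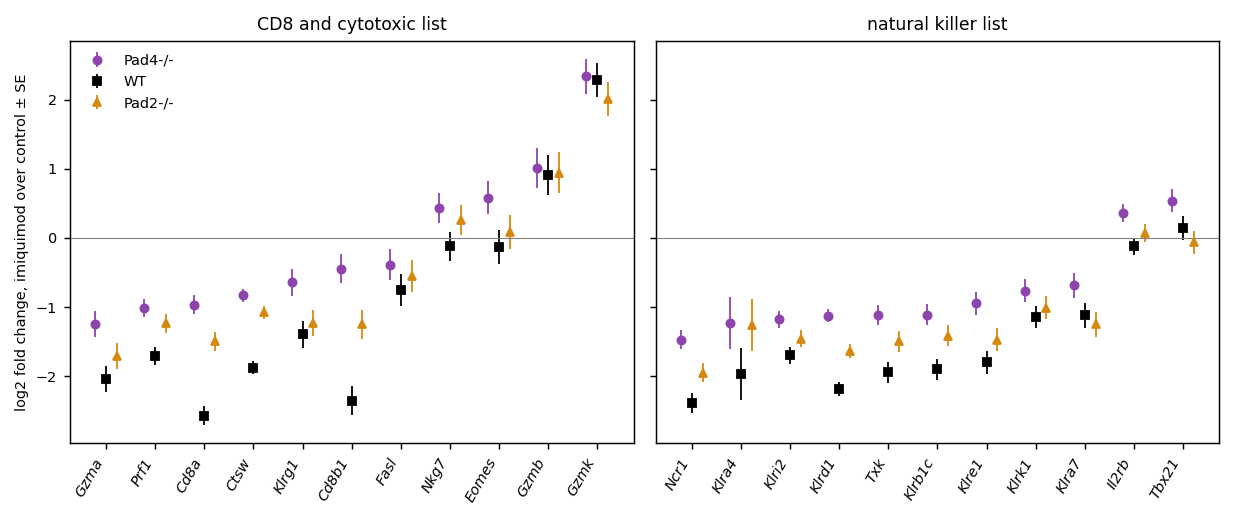
Log2 fold change with its SE, imiquimod over control, for each tested CD8 and cytotoxic gene (left) and NK gene (right), in Pad4-/- (circles), WT (squares) and Pad2-/- (triangles) spleen. The Pad4-/- circle lies above the WT square in every gene, by most in Cd8b1 (1.91) and Cd8a (1.60), which passed the test of the difference together with Ctsw and Klrd1.

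**Figure D5:**
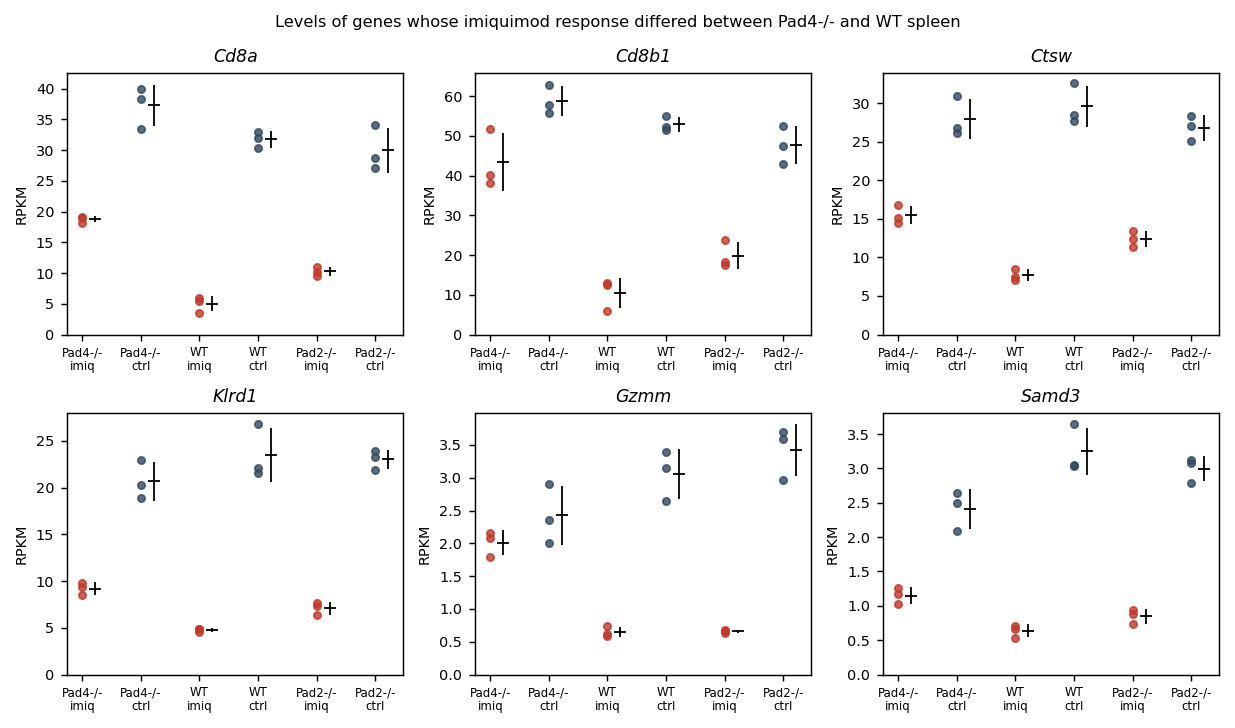
RPKM of the 6 genes whose response was higher in Pad4-/- than in WT spleen, in each of the 18 spleen libraries (red imiquimod, dark control; black marks are the mean ± SD, n = 3). In each gene the 3 Pad4-/- imiquimod points lie above the 3 WT imiquimod points. In Cd8a, Cd8b1, Gzmm, Klrd1 and Ctsw the Pad4-/- and WT control means are closer together than the imiquimod means. In Samd3 the control means are further apart in RPKM than the imiquimod means, and every Pad4-/- control point lies below every WT control point.

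The genes that passed lower against WT were Padi4 and Rn4.5s. Padi4 rose in WT spleen, by 2.97, and not in Pad4-/- spleen (difference -2.91 ± 0.43, adjusted p = 0.0116; against Pad2-/- -2.46 ± 0.43, adjusted p = 0.0398). Rn4.5s, an abundant small RNA gene with many copies whose reads cannot be placed with certainty, had a response of -0.84 in Pad4-/-, 1.87 in WT and 1.64 in Pad2-/- (differences -2.70 ± 0.40, adjusted p = 0.0119 and -2.48 ± 0.40, adjusted p = 0.0245). Neither passed against WT without WT control replicate 1 (adjusted p = 0.0516 for both genes) or 3 (adjusted p = 0.0505 for both genes). Both also lost their calls against WT with no filter (adjusted p = 0.0533 for Padi4 and 0.0553 for Rn4.5s). Padi4 lost it in the fit of 12 libraries (adjusted p = 0.0591), and Rn4.5s with weights by group (adjusted p = 0.094). Pad4-/- control replicate 3 had the highest Rn4.5s value of the controls, 7.82 RPKM, and without it the Pad4-/- response was -0.44 and did not pass (adjusted p = 0.107). It did not pass without imiquimod replicate 1 either (-0.62, adjusted p = 0.0878).

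Against Pad2-/-, 10 genes passed. Among them Padi4, Alpl, Zfp534, Zfp990 and Angptl7 lie on chromosome 4, as does Padi2. The share of all tested genes on this chromosome was not counted, and a link to position was not tested. Gzmm passed again (1.54 ± 0.17, adjusted p = 0.00122). Alpl, alkaline phosphatase, had 6.21, 4.28 and 8.26 RPKM in imiquimod libraries, against 0.513, 0.719 and 0.478 RPKM in controls in Pad4-/- spleen. Its response was 2.62 in Pad4-/- and 0.39 in Pad2-/- (difference 2.23 ± 0.37, adjusted p = 0.0291), where it averaged 2.69 ± 0.587 RPKM with imiquimod and 1.95 ± 0.601 RPKM in controls (SD, n = 3 each). Alpl lies at chromosome 4, 137741731 to 137796384, Zfp534 at chromosome 4, 147674225 to 147702631, Zfp990 at chromosome 4, 145510759 to 145538251, Angptl7 at chromosome 4, 148495181 to 148500462, Padi4 at chromosome 4, 140745508 to 140774239 and Padi2 at chromosome 4, 140906336 to 140952586 (mm10). Zfp534 and Zfp990, KRAB zinc finger genes, were near 0 in both Pad4-/- groups, with responses of -0.03 and -0.02, and the differences (1.79 ± 0.25, adjusted p = 0.0079 and 1.62 ± 0.21, adjusted p = 0.00491) stand beside Pad2-/- values for Zfp534 of 2.18 ± 0.762 RPKM with imiquimod and 8.68 ± 0.588 RPKM in controls (SD, n = 3 each). Angptl7 was under 1 RPKM in all 6 Pad4-/- libraries and rose in Pad2-/- by 1.96 (difference -2.02 ± 0.18, adjusted p = 0.000117). Cxcr4 rose in Pad4-/- (0.75) and had -0.41 in Pad2-/- (difference 1.16 ± 0.18, adjusted p = 0.0221). With imiquimod it averaged 115 ± 15.5 RPKM in Pad4-/- and 109 ± 3.62 RPKM in Pad2-/-, while controls averaged 67.8 ± 3.67 RPKM in Pad4-/- and 147 ± 24.9 RPKM in Pad2-/- (SD, n = 3 each), so the groups differ most without imiquimod. The complement regulator Cd55 (0.91 ± 0.14, adjusted p = 0.0221) and the small heat shock gene Hspb1 (1.60 ± 0.26, adjusted p = 0.0245) also passed higher; both are named after their values were seen. Alpl, Cxcr4, Cd55, Hspb1, Rn4.5s and Padi4 lost their calls against Pad2-/- without single libraries. The adjusted p reached 0.1 for Cd55, 0.108 for Hspb1, 0.142 for Alpl, 0.0958 for Cxcr4, 0.128 for Rn4.5s and 0.185 for Padi4. With weights by group these genes lost their calls too. The adjusted p was then 0.143 for Cd55, 0.143 for Hspb1, 0.0931 for Alpl, 0.409 for Cxcr4, 0.55 for Rn4.5s and 0.12 for Padi4. The replicate block took the calls of Alpl (0.246), Hspb1 (0.231) and Cxcr4 (0.143), and equal totals without haemoglobin genes that of Cd55 (0.171). Zfp534 and Zfp990 lost their calls with a pseudocount of 0.1 (adjusted p = 0.652 and 0.304) and with the replicate block (0.121 for both). Zfp534 also lost its call with the filter of 5 RPKM (adjusted p = 0.812), and Gzmm with weights by group (adjusted p = 0.0931).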

How the data were processed

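Poly(A) RNA of whole spleens was sequenced, and the authors deposited RPKM per gene symbol, 1 column per library. Per the submitters' processing notes, reads were converted with bcl2fastq 1.17.1 and aligned to mm10 with TopHat2 2.1.0; the counter and annotation are not stated in those notes or the labels. RPKM keep no read numbers, so the depth of each library is unknown, and each library's values are shares of its own total: a gene can fall when other genes take more reads. All columns were mapped to samples (0 left out), and 0 pairs of libraries were identical.

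From these values log2(RPKM + 0.5) was computed for the 11982 of 24957 genes with at least 1 RPKM in at least 3 spleen libraries. One limma model (limma 3.58.1, R 4.3.3, empirical Bayes with trend) was fitted to all 18 spleen libraries, 6 groups of 3, with contrasts for imiquimod against control and for differences between responses, and each adjusted p in the text is its Benjamini-Hochberg value over all tested genes. The SE is limma's moderated one. The 12 lymph node libraries were not used here.

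The genes compared and the 60 gene lists were chosen with earlier results of these data known, so the lists are described by counts and medians and not tested. Named genes are the deiminases; all tested genes of the endosomal TLR, TLR7 adaptor and Fc gamma receptor lists; the 12 largest rises and falls without library overlap and with 2 RPKM or more on average in one of the groups (no unnamed clones, small RNAs, receptor segments or sex-linked genes); up to 5 genes per list with the smallest p and those that moved against their list; and, for each response difference, the 5 largest each way among genes that passed with 2 RPKM or more in some group. Genes named beyond that are checks of tissue, sex or carry-over. Coordinates and promoters are from RefSeq, GRCm38.p6 (mm10), matched by symbol or synonym for 24865 symbols. Alternatives covered pseudocount, filter, scaling, replicate block, weights, the libraries fitted and each replicate left out. A few genes that the naming rule selects are not reported here.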

Additional observations from a re-analysis of the deposited data

Results flagged for a closer look

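The results given here passed the test of the difference between the Pad4-/- response to imiquimod and that of another genotype (limma, adjusted p under 0.05). All values are differences of log2 fold changes, Pad4-/- minus the other genotype, so a positive value means a higher response in Pad4-/- spleen.

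Against WT, the cytotoxic lymphocyte genes Cd8a (1.60), Cd8b1 (1.91), Gzmm (1.42), Klrd1 (1.06) and Ctsw (1.05) and the gene Samd3 (0.91) had positive differences. Padi4 (-2.91), the gene disrupted in these mice, and the repetitive small RNA gene Rn4.5s (-2.70) had negative ones.

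Against Pad2-/-, positive differences were found for Gzmm (1.54), the KRAB zinc finger genes Zfp534 (1.79) and Zfp990 (1.62), alkaline phosphatase Alpl (2.23), the chemokine receptor Cxcr4 (1.16), the small heat shock gene Hspb1 (1.60) and the complement regulator Cd55 (0.91). Angptl7 (-2.02), Padi4 (-2.46) and Rn4.5s (-2.48) had negative ones. The values of Zfp534, Zfp990 and Angptl7 were under 1 RPKM in all 6 Pad4-/- libraries.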

How the results depend on the processing

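The split of changed genes between higher and lower depended on scaling in the Pad4-/- comparison. The count of genes was 3493 higher and 5223 lower under quantile normalization, and 2739 higher and 6228 lower with equal totals without haemoglobin genes, against 4062 and 4325 with RPKM as deposited. Without 1 library at a time the counts lay between 3684 and 3980 higher and between 3620 and 4458 lower. The replicate number as a block within genotype gave 3988 higher and 4133 lower; same-numbered libraries did not deviate together in every pair (r of 0.237, 0.0566 and 0.110 across genes), so the numbers were not treated as pairs. Signs reversed for Lgmn under quantile normalization (-0.016) and with equal totals without haemoglobin genes (-0.067), and for Irak4 with equal totals (-0.24).

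List medians changed sign for endosomal receptors (-0.0026) and ribosomal proteins (-0.11) under quantile normalization, for cytokines with the filter of 5 RPKM (-0.25) and for lymphoid homing with no filter (0.093).

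The response differences were less stable. Against WT, lower genes numbered 4 with a pseudocount of 0.1 or equal totals without haemoglobin genes and 1 with no filter, and higher genes numbered 2 with the replicate block or with weights by group. Leaving out 1 library gave 4 to 41 higher and 0 to 716 lower genes: 0 lower without WT control replicate 1 or 3 (1284 and 1123 at an unadjusted limma p under 0.05), and 716 lower without WT imiquimod replicate 2. Against Pad2-/-, the filter of 5 RPKM gave 0 higher and 0 lower genes (324 and 189 at an unadjusted limma p under 0.05), median-ratio scaling 12 higher, the replicate block 2 higher, weights by group 2 higher and 1 lower, and the 12 Pad4-/- and Pad2-/- libraries alone 3 higher. Leaving out 1 library gave 3 to 11 higher and 0 to 3 lower genes: the count of higher genes was 3 without Pad4-/- control replicate 1 or 3, Pad4-/- imiquimod replicate 3, Pad2-/- control replicate 3 or Pad2-/- imiquimod replicate 3, 4 without Pad2-/- control replicate 1, and 11 without Pad2-/- imiquimod replicate 2. Lower genes numbered 0 without Pad2-/- imiquimod replicate 3 (213 unadjusted). The cause of these changes was not tested. Read depth is unknown, so no limit of detection can be given for genes near 0.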
